A study of Mus musculus with 10 samples.

Results

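Interferon-induced genes are the antiviral programme that cells switch on when interferon binds its receptors. Janus kinases at the receptors activate STAT proteins, and a complex that holds STAT2 and IRF9 binds the interferon-stimulated response element (ISRE) in target promoters. Type II interferon acts instead at gamma-activated sites (GAS). The same response raises the immunoproteasome, the peptide transporter and the light chain of MHC class I molecules, which display peptides of the cell's own proteins at its surface. A set of 39 genes of this response and of antigen processing was followed in fetal livers lacking Zfp36l2, a relative of tristetraprolin that binds AU-rich elements in mRNAs and promotes their decay.

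The genes were taken by name, through probe sets annotated to exactly 1 gene symbol. That gave 58 probe sets for 37 of the 39 genes, out of 18193 genes measured in this way. Ifi44 had no such probe set in the annotation used, and the probe set naming Isg15 names another gene too, so neither was analysed here. The data were 10 Affymetrix arrays, each of RNA from the liver of 1 mouse fetus at embryonic day 14.5. There were 5 wild type livers and 5 Zfp36l2 knockout livers, all of a mixed b6 and 129 background. The labels used here do not say which part of the gene was deleted, nor give litter or sex. With arrays, precision is limited by how many livers there are.

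A gene counted as detected where its mean normalized intensity over the 10 livers was above 50, and 22 of the 37 genes passed (59.5%, against 48.1% of all genes). These were Irf1, Irf8, Irf9, Stat2, Rsad2, Ifit2, Ifih1, Ifi35, Ifi27, Ly6e, Usp18, Trim25, Parp9, Dtx3l, Ifitm1, Ifitm2, Ifitm3, Psmb8, Psmb9, Psmb10, Tapbp and B2m. A further 12 were dimmer but bright enough to be tested: Irf7, Ifit3, Oas1a, Mx1, Bst2, Xaf1, Rtp4, Parp14, Gbp2, Gbp3, Tap1 and Tap2. The other 3, Ifit1, Oasl2 and Mx2, averaged 3.95, 4.55 and -16.8 and were too dim to test. Where a gene had several probe sets, it was represented by the one with the highest mean.

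Sequences of the promoters show which interferon elements lie at these genes. RefSeq promoters (GRCm38.p6), each 300 bases from 250 before to 50 after an annotated start, were found for 30 of the 39 genes. The 4 shown are those of Rsad2 and Ifitm3, which passed the test described below, of Ifitm2, a paralog of Ifitm3 in the same gene cluster, and of Ifit1, a classical interferon-induced gene that was not detected. Capitals mark matches to the ISRE core on either strand, which is GAAA, any 2 bases and GAAA again, and reads TTTC, any 2 bases and TTTC on the other strand. They lie at chr12:26456403-26456702 (Rsad2, minus strand), chr7:141010695-141010994 (Ifitm3, minus), chr7:140955912-140956211 (Ifitm2, minus) and chr19:34640639-34640938 (Ifit1, plus).
Rsad2: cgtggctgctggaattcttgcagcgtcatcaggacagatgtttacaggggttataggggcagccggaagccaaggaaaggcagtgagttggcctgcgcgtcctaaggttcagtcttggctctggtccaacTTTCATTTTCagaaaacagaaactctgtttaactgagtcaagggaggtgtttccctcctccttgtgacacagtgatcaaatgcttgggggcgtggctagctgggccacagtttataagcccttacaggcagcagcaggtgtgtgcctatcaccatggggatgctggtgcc
Ifitm3: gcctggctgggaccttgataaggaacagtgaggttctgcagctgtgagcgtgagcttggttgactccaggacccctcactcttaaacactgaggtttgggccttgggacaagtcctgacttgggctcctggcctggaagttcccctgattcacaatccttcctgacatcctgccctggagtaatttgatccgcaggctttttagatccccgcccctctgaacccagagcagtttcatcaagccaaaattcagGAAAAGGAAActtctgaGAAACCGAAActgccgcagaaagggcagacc
Ifitm2: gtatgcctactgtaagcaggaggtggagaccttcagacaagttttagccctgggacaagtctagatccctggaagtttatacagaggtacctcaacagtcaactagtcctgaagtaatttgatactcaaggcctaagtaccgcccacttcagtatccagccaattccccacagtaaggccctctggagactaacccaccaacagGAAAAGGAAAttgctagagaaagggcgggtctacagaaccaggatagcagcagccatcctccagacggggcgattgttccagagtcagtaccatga
Ifit1: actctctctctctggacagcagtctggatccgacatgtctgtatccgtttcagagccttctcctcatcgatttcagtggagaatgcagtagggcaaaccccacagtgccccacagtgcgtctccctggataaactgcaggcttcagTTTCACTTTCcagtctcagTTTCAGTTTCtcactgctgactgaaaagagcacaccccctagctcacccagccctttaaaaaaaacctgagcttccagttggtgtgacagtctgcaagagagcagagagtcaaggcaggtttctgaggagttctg

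The ISRE core was found in 13 of the 35 promoters of these genes (37.1%), against 3.44% of all 32851 promoters. The 13 genes were B2m, Bst2, Gbp2, Gbp3, Ifih1, Ifit1, Ifit3, Ifitm2, Ifitm3, Isg15, Oas1a, Rsad2 and Stat2, and 7 of them held more than 1 match. In Rsad2 the match began 120 bases before the start, and in Ifit1 the matches began 104 and 85 bases before it. Ifitm3 held its matches at bases 3 and 20 after the start, whereas that of Ifitm2 began 46 bases before. The GAS core TTCNNNGAA, which reads alike on both strands, was in 22.9% of these promoters against 8.30% of all. It was found in Bst2, Ifi35, Ifit2, Ifitm3, Irf1, Irf8, Oas1a and Psmb8, and overlapped an ISRE match in Ifitm3 and Bst2. Of the 11 tested genes with an ISRE match 2 passed limma's adjusted threshold described below and 5 had an unadjusted p under 0.05, with a median log2 difference of 0.19. Of the 15 tested genes whose promoters held none, 0 passed and 5 had an unadjusted p under 0.05, with a median of 0.16. Of the 8 tested genes with a GAS match 1 passed, 7 were positive and 5 had an unadjusted p under 0.05, with a median of 0.52. Of the 18 without one 1 passed and 5 had an unadjusted p under 0.05, with a median of 0.12. The difference between genes with and without a match was not tested, and a match describes letters only, not binding.

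Zfp36l2 itself was checked first. On the probe set with the highest mean, the 5 knockout livers read 82.3 to 109 and the 5 wild type livers 389 to 596 (log2 -2.08 ± 0.13 SE, limma adjusted p = 1.47e-06). A much dimmer Zfp36l2 probe set overlapped between genotypes, with knockout values of 12.4 to 33.7 and wild type values of 17.9 to 41.9. Its difference of -0.25 ± 0.31 did not pass (limma adjusted p = 0.858). The remaining Zfp36l2 probe set lay under the floor of 16 in every liver and was not tested. The check of the knockout thus rests on the brightest probe set alone. Over all probe sets limma called 57 of 27022 (0.211%) at an adjusted p under 0.05, and 50.9% of those were higher in the knockout, or 73.4% of 94 when arrays were scaled to a common median, which moved the median difference of all genes to 0.06. That share was 9.09% of 11 calls with values at or under 0 set to the lowest positive value, 25.0% with a floor of 32 or with no filter, 22.2% without a trend and 15.4% without wild type replicate 4. The samples, labelled as liver, had all 9 measured hepatocyte markers and all 10 measured erythroid markers detected. Erythroid markers lay lower in the knockout in 9 of 10 tested genes, with a median log2 difference of -0.26. Of these genes 8 were lower at an unadjusted p under 0.05, against 5.44% of all genes. None passed limma's adjusted threshold. For 3 of them the genotypes did not overlap, against 1.43% of all genes lower in this way. Slc4a1, the anion exchanger with the highest mean of the erythroid list, differed by 0.00 ± 0.09, and the hepatocyte gene Afp by -0.01 ± 0.05. Afp lay at the top of every array, where quantile normalization gives all livers nearly the same value, so its difference says little. Of 9 tested hepatocyte genes 6 were positive, with a median of 0.08. Among them 2 were higher at an unadjusted p under 0.05, against 5.94% of all genes, and 0 passed. Whether the erythroid and hepatocyte differences bear on the members was not tested. In whole livers, fewer cells of a type and less RNA per cell cannot be told apart.

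Rsad2 and Ifitm3 rose in the knockout livers, and they were the 2 of 34 tested members that passed (limma, Benjamini-Hochberg over all probe sets). Among all 12821 tested genes 0.156% passed in that direction and 0.172% in the other. No tested member fell, at either the adjusted threshold or an unadjusted p under 0.05, which 5.44% of all genes passed downwards. Upwards, 11 of 34 members had an unadjusted p under 0.05, against 5.94% of all genes. The log2 difference was above 0 for 26 of 34 members, against 50.1% of all genes, with a median of 0.16 against 0.00. The lowest was -0.46 for Ifit2 and the highest 1.74 for Rsad2. Livers of the genotypes did not overlap for 2 members, again Rsad2 and Ifitm3, both higher, where 1.33% of all tested genes were higher and 1.43% lower in this way.

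**Figure D1:**
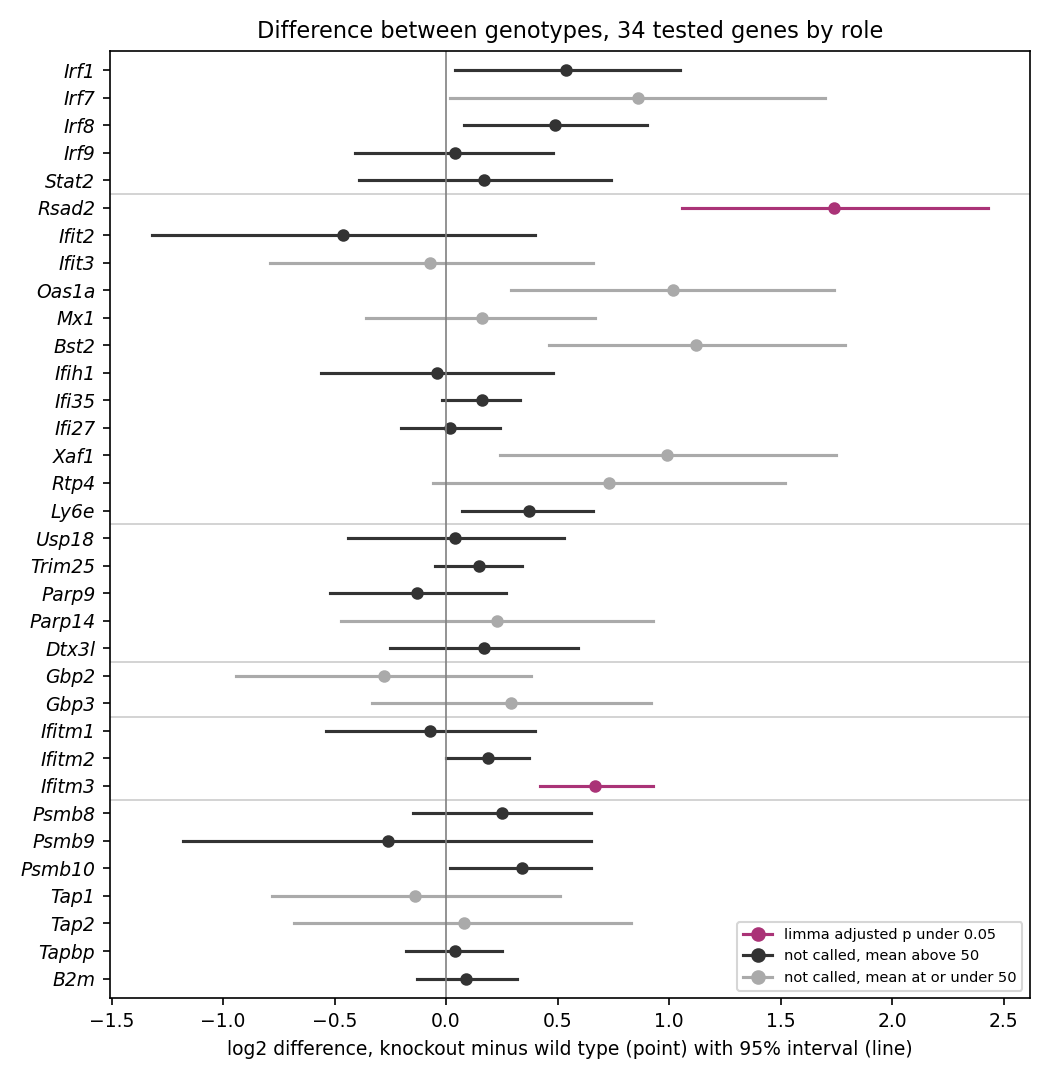
Difference in log2 intensity between knockout and wild type livers (x axis; point, with its 95% interval from limma as a line) for the 34 tested genes, grouped by role. Rsad2 (1.74) and Ifitm3 (0.67), in purple, are the genes that passed; dim genes, in light grey, have wide intervals.

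Rsad2 encodes viperin, a radical SAM enzyme that makes a chain-terminating nucleotide and restricts many viruses. Its brightest probe set read 113, 274, 237, 76.5 and 340.3 in wild type replicates 1 to 5, and 533, 470.2, 872, 519 and 712 in knockout replicates 1 to 5. The lowest knockout liver thus lay above the highest wild type liver, and wild type replicates 1 and 4 were the lowest of all. The means were 208 ± 111 and 621 ± 168 (SD, n = 5), a 3.35-fold difference (log2 1.74 ± 0.32 SE, 95% interval 1.06 to 2.43, limma adjusted p = 0.0362). The other Rsad2 probe sets differed by 1.75 ± 0.32 (adjusted p = 0.0359) and 1.40 ± 0.31 (adjusted p = 0.0790), and in each of them the genotypes again did not overlap.

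Within a genotype Rsad2 varied more than most genes of its level. Its within-genotype SD of 0.70 on the log2 scale lay at the 99.2nd percentile of 947 detected genes of like mean. Rsad2 was called in 9 of 22 alternative settings, and its difference lay between 1.44 and 1.97 in them all. Leaving out 1 liver ended the call for wild type replicates 1 (log2 1.58), 3 (1.84) and 4 (1.44) and for every knockout replicate (1.79, 1.84, 1.61, 1.80 and 1.68 for 1 to 5), at limma adjusted p-values from 0.0564 to 0.0918. The call also ended under 5 settings of the floor, filter and variance model that the closing section names.

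Ifitm3 encodes an interferon-induced transmembrane protein that blocks the fusion of viruses with endosomal membranes. It read 345, 349.8, 302, 243 and 396 in the wild type livers, and 518, 454, 467, 528 and 624 in the knockout livers. Every knockout liver lay above every wild type liver, and the spread within a genotype was small beside the difference. The means were 327 ± 57.7 and 518 ± 67.2 (SD, n = 5), a 1.60-fold difference (log2 0.67 ± 0.12 SE, 95% interval 0.42 to 0.93, limma adjusted p = 0.0359). Ifitm3 was likewise called in 9 of 22 alternative settings, at 0.57 to 0.75. Leaving out 1 liver ended its call for wild type replicates 1 (0.70), 2 (0.70), 3 (0.65) and 4 (0.57) and knockout replicates 1 (0.67), 3 (0.71), 4 (0.67) and 5 (0.60), at limma adjusted p-values from 0.0526 to 0.0969, and so did the same 5 settings.

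**Figure D2:**
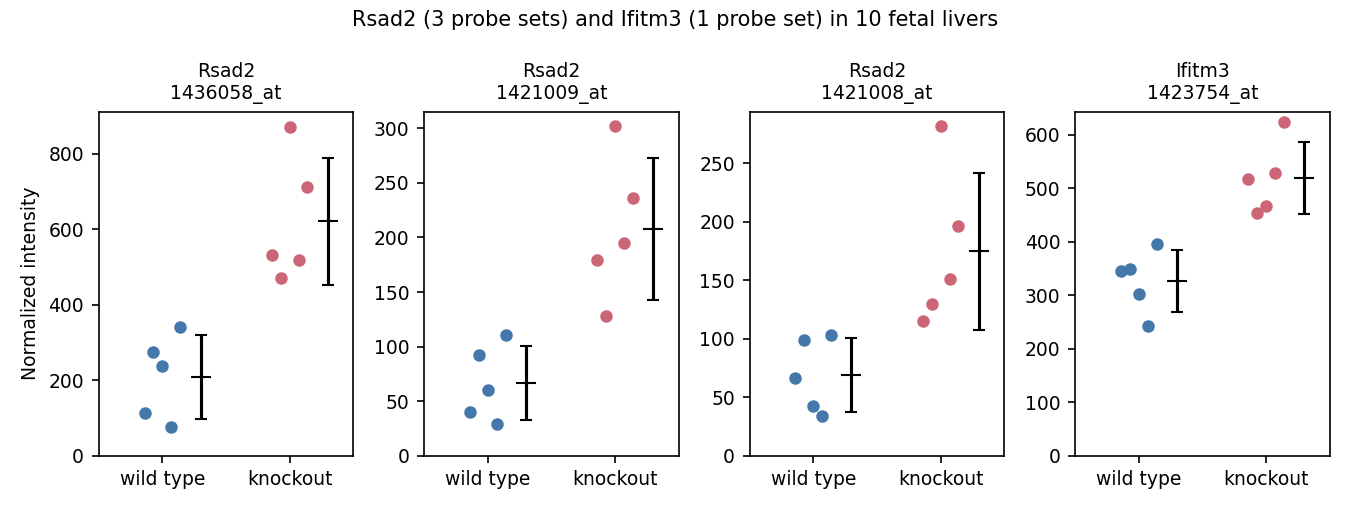
Normalized intensity (y axes, linear from 0) of the 3 Rsad2 probe sets and the Ifitm3 probe set in each liver, with the genotype mean and SD (black, n = 5). In every panel the lowest knockout liver lies above the highest wild type liver.

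The paralogs Ifitm2 and Ifitm1, which are members, differed less than Ifitm3. Ifitm6, a paralog outside the members described below, had a larger difference (1.54 ± 0.37) that did not pass in limma. Ifitm2, from the same gene cluster on chromosome 7, read 1571, 1376, 1398, 1455 and 1828 in wild type and 1675, 1778, 1628, 1533 and 2068 in knockout livers. These ranges overlapped, and the difference of 0.19 ± 0.09 did not pass (limma adjusted p = 0.508). Ifitm1 read 165, 119, 108, 83.6 and 222 in wild type and 108, 127, 106, 157 and 136 in knockout livers. Its difference of -0.07 ± 0.22 (adjusted p = 0.959) changed sign in 4 of 22 settings. These genes are close copies of each other, and how far their probe sets read each other was not tested. The differences between the paralogs were not tested either.

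Markers of monocytes and macrophages were mostly higher in the knockout livers. In that list 19 of 20 tested genes had a positive difference, with a median of 0.42. The 20 differences ran from -0.61 for Clec4f to 1.28 for Lyz2, both named after their values were seen. In limma 0 passed, and 11 were higher at an unadjusted p under 0.05, against 5.94% of all genes. The summed intensity of the list was 4738 to 11240 in wild type and 9363 to 11760 in knockout livers. These sums lean on the 2 brightest genes, Lyz1 and Lyz2, at means of 2053 and 1591. Wild type replicate 5, at 11240, lay within the knockout range, and the other wild type livers reached 7271 at most. The neutrophil list ran from 6478 to 28490 and from 14420 to 27170, with wild type replicate 5 the highest of all livers. Of its 14 tested genes 10 were higher at an unadjusted p under 0.05, against 5.94% of all genes, with 0 passing limma's threshold. Another 3 had negative differences, Mpo (-0.24), Elane (-0.11) and Chil3 (-0.68), named after their values were seen. S100a9, the brightest gene of the neutrophil list, averaged 4234 ± 2888 and 6876 ± 1571 (limma adjusted p = 0.337). In wild type replicate 5 Rsad2 and Ifitm3 were also the highest of their genotype (340.3 and 396). Lyz1, the lysozyme gene with the highest mean of the first list, read 1084, 1425, 868, 615 and 2772 in wild type and 2956, 1819, 2956, 2838 and 3198 in knockout livers. The name of its probe set marks possible cross-hybridisation. Lyz2 read 705, 1073, 680, 456 and 2185 in wild type and 2231, 1451, 2510, 2216 and 2403 in knockout livers. How far these probe sets read each other was not tested. No marker of either list averaged 16 or less. Without wild type replicate 5 Rsad2 differed by 1.97 and Ifitm3 by 0.75, with limma adjusted p-values of 0.00669 and 0.00738. That setting called 168 probe sets over the whole array. The part of these cells in the difference was not tested. Markers of T and NK cells were near the background, with 10 of 12 at a mean of 16 or less, and so were 8 of 10 dendritic cell markers, Siglech and Itgax among them, named as defining markers after their values were seen. The brightest genes of these lists were Prf1, at a mean of 20.8, and Tcf4, at 169. Igll1 of the B-lymphoid list differed by 0.31 ± 0.24 and Lyve1 of the endothelial list by 0.14 ± 0.09. In the other direction 5 of 10 megakaryocyte markers fell in limma, with log2 differences of -1.39 for Pf4, -1.38 for Ppbp, -1.59 for Gp5, -1.11 for Itgb3 and -0.83 for Itga2b, and limma adjusted p-values from 0.000107 to 0.0378.

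The transcription factors of the response had positive differences in 5 of 5 tested genes, against 50.1% of all genes, with none passing limma's adjusted threshold. Of these 3 were higher at an unadjusted p under 0.05, against 5.94% of all genes. The differences of Irf9 and Stat2 changed sign in 2 and 1 of 22 settings. Irf1, an early target of type II interferon, read 43.9, 48.9, 80.7, 58.1 and 63.7 in wild type and 136, 80.6, 82.4, 70.6 and 66.1 in knockout livers (log2 0.54 ± 0.24, adjusted p = 0.475). Knockout replicate 1 was far above the rest, and the other knockout livers, from 66.1 to 82.4, lay around wild type replicate 3. Irf8, a factor that directs myeloid progenitors towards monocytes and dendritic cells, read 64.9, 91.5, 75.7, 84.7 and 113 against 114, 82.8, 143, 141 and 123. All knockout livers but replicate 2 lay above the highest wild type liver, and the difference was 0.49 ± 0.19 (adjusted p = 0.407). On the other Irf8 probe set, at a mean of 32.2, the livers overlapped and the difference was 0.37 ± 0.36 (adjusted p = 0.807).

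Irf7, the amplifier of type I interferon production, was dim at a mean of 37.8. It read 21.8, 52.3, -12.8, 2.08 and 52.9 in wild type and 65.2, 66.2, 44.3, 58.4 and 27.2 in knockout livers. With 2 wild type livers under the floor of 16, its log2 difference of 0.86 ± 0.40 (adjusted p = 0.496) rests partly on values set to that floor, and was 0.40 with a floor of 32 and 4.25 with values at or under 0 set to the lowest positive value. Irf9 and Stat2, which encode parts of the ISRE-binding complex, differed by 0.04 (95% interval -0.41 to 0.48) and 0.17 (-0.39 to 0.74), with adjusted p-values of 0.975 and 0.896. The other Stat2 probe set, at a mean of 15.8, differed by -0.12 ± 0.30. Irf9 ranged from 78.4 to 94.1 in wild type and from 63.0 to 132 in knockout livers, so the knockout range enclosed the wild type range.

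Of 12 tested antiviral effectors 9 had positive differences, against 50.1% of all genes. At an unadjusted p under 0.05, 5 were higher, against 5.94% of all genes. Of these effectors 1, Rsad2, passed. The classical interferon-induced genes among them were dim. Ifit1, which binds foreign RNA caps, and the GTPase Mx2 reached no more than 24.2 in any liver, and Ifit3 and Mx1 averaged 18.5 and 13.9. Ifit2, the detected member of that family, read 90.4, 87.0, 44.7, 20.9 and 66.3 in wild type and 54.5, 55.9, 39.6, 43.9 and 18.5 in knockout livers. The genotypes overlapped widely, and the difference of -0.46 had a 95% interval of -1.32 to 0.40 (adjusted p = 0.776). It was -0.28, -0.29 and -0.81 without wild type replicates 1, 2 and 4, and -0.19 without knockout replicate 5. Ifih1, a sensor of double-stranded RNA, averaged 80.3 ± 23.2 and 77.3 ± 18.0 (-0.04 ± 0.24, adjusted p = 0.980).

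Several dim effectors had positive values that did not pass and whose size the floor sets. Bst2, the tetherin that holds budding viruses at the cell surface, read 35.9, 13.0, 14.9, 16.5 and -5.81 in wild type and 41.7, 31.6, 66.3, 45.4 and 30.2 in knockout livers (log2 1.12 ± 0.31, adjusted p = 0.176). Only wild type replicate 1 reached the knockout range. Oas1a, an oligoadenylate synthetase that activates RNase L, read 9.82, 35.9, 6.45, 14.9 and 49.4 against 44.7, 51.9, 36.9, 55.6 and 52.0 (1.02 ± 0.34, adjusted p = 0.287). Wild type replicates 2 and 5 lay near the knockout livers. Xaf1, a pro-apoptotic zinc finger protein, averaged 11.4 ± 12.3 and 39.2 ± 21.0 (0.99 ± 0.36, adjusted p = 0.330). In each of these 3 genes, 3 wild type livers were under the floor of 16, so no fold is given. With a floor of 32 the log2 differences of Bst2, Oas1a and Xaf1 were 0.35, 0.42 and 0.44, and with values at or under 0 set to the lowest positive value they were 4.0, 1.44 and 3.87. Rtp4 averaged 33.7 ± 17.1 and 54.8 ± 22.3 (0.73 ± 0.37, adjusted p = 0.565).

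Ly6e, Ifi35 and Ifi27 were brighter, and none of them passed. Ly6e, a GPI-anchored protein that limits coronavirus entry, read 424, 386, 452, 359.8 and 537 in wild type and 565, 374, 607, 599 and 662 in knockout livers. All knockout livers but replicate 2 lay above the wild type livers, and the difference was 0.37 ± 0.14 (95% interval 0.07 to 0.66, adjusted p = 0.377). Ifi35 averaged 471 ± 47.5 and 524 ± 41.5 on its brightest probe set (0.16 ± 0.08, adjusted p = 0.589). On a probe set whose name marks possible cross-hybridisation its livers did not overlap, at 109.8 to 139 against 149 to 182, and the difference of 0.38 ± 0.12 did not pass (adjusted p = 0.261). The remaining Ifi35 probe set, whose name carries no mark of shared sequence, averaged 132 ± 27.0 and 167 ± 45.9. There the livers overlapped, and the difference of 0.32 ± 0.18 did not pass (adjusted p = 0.610). Ifi27 averaged 193 ± 18.1 and 196 ± 13.3, with a 95% interval of the log2 difference from -0.20 to 0.24.

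**Figure D3:**
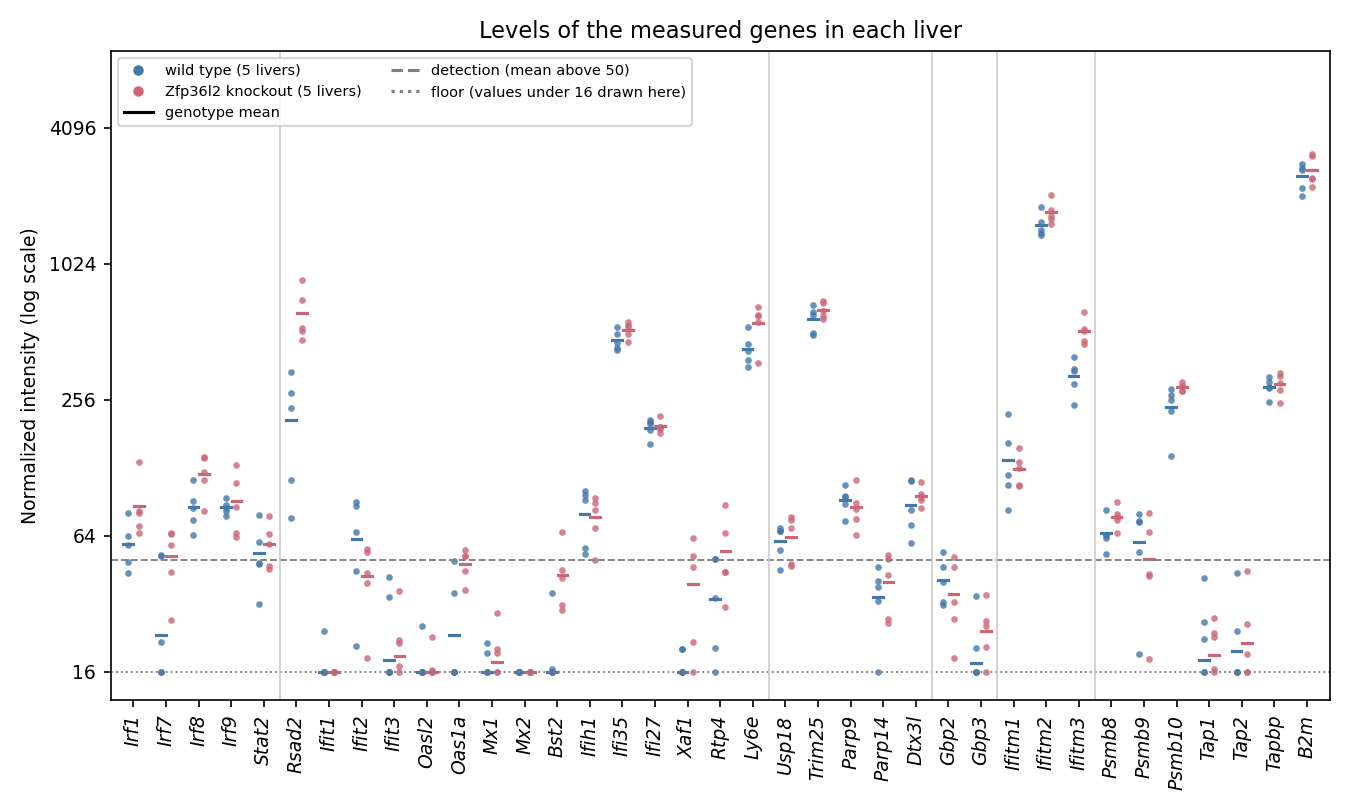
Normalized intensity (log axis) of the 37 measured genes in each of the 10 livers, blue for wild type and red for knockout, with short lines for genotype means and vertical lines between roles. Values and means under 16 are drawn at 16; the dashed line is the detection level of 50, under which 15 genes lie on average.

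Genes of ISG15, ubiquitin and ADP-ribosyl conjugation did not pass, and 0 of 5 had an unadjusted p under 0.05 in limma. Usp18, the protease that removes ISG15 and damps receptor signalling, averaged 61.0 ± 10.5 and 63.6 ± 14.8 (0.04 ± 0.23, adjusted p = 0.974). Trim25, a ubiquitin ligase of the RIG-I pathway, averaged 583 ± 78.1 and 643 ± 51.0 (0.15 ± 0.09, adjusted p = 0.641). Parp9 and its partner Dtx3l, which act as a complex, differed by -0.13 ± 0.18 and 0.17 ± 0.20, with adjusted p-values of 0.889 and 0.848. The other Dtx3l probe set, at a mean of 31.4, had the opposite sign (-0.40 ± 0.35). Parp14 differed by 0.23 ± 0.33. The guanylate-binding proteins Gbp2 and Gbp3, which attack membranes of intracellular pathogens, averaged 38.2 and 20.9, with differences of -0.28 ± 0.31 and 0.29 ± 0.29 (adjusted p = 0.841 and 0.817). The other Gbp2 probe set had the opposite sign (0.18 ± 0.42).

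In antigen processing none of 7 tested genes passed in limma. At an unadjusted p under 0.05, 1 was higher, against 5.94% of all genes. That gene was Psmb10, the immunoproteasome subunit that replaces Psmb7. It read 287, 257, 229.9, 268 and 144 in wild type and 296, 307, 280.4, 295 and 279 in knockout livers. Wild type replicate 5 was far the lowest and replicate 1 lay within the knockout range (0.34 ± 0.15, adjusted p = 0.476). Without wild type replicate 5 the difference was 0.17. Psmb8 averaged 65.6 ± 10.9 and 77.8 ± 8.81 (0.25 ± 0.19, adjusted p = 0.726). Psmb9 ranged from 19.2 to 79.8 in wild type and from 18.3 to 80.9 in knockout livers (-0.26 ± 0.43, adjusted p = 0.902), and its within-genotype SD of 0.84 was the largest among the 22 detected members.

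B2m, the light chain of MHC class I molecules, was measured by a pair of probe sets that gave unlike values. The brighter one averaged 2503 ± 346 and 2672 ± 410.3 (0.09 ± 0.11, adjusted p = 0.846). The other read 2273, 2426, 2312, 2002 and 2628 in wild type and 2775, 2813, 2757, 2389.6 and 2838 in knockout livers. There every knockout liver but replicate 4 lay above the wild type livers, and the difference was 0.22 ± 0.07 (95% interval 0.07 to 0.38, adjusted p = 0.251). Tapbp, which holds class I molecules at the peptide transporter, averaged 292 ± 26.6 and 300.0 ± 35.4, with a 95% interval of -0.18 to 0.25. The transporter genes Tap1 and Tap2 averaged 18.5 and 20.6, where 3 and 5 livers were under the floor. Psmb8, Psmb9, Tap1, Tap2 and Tapbp lie on chromosome 17, as Zfp36l2 does, and their differences ran from -0.26 to 0.25.

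Each liver was also described by the median deviation of the 22 detected members from their means. Among wild type livers its lowest value was -0.22, in replicate 4, and its highest 0.08, in replicate 5. Among knockout livers it lay between 0.06 and 0.15. Wild type replicate 5 therefore reached the knockout range. Over all detected genes these medians stayed between -0.00 and 0.02. Quantile normalization gives all arrays the same distribution and tends to hold those medians near 0, so they are no test of the members. Wild type replicate 4 was the lowest of all livers for 7 of the 22 genes. Knockout replicates 2 and 5 were each the highest for 5 genes, and knockout replicate 2 was also the lowest for 4. The members had a median within-genotype SD of 0.29 on the log2 scale, against 0.20 for all 8751 detected genes. These medians are not matched for level. Among detected genes of like mean, the percentile of a member's SD ran from 6.31 for Psmb8 to 99.2 for Rsad2.

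**Figure D4:**
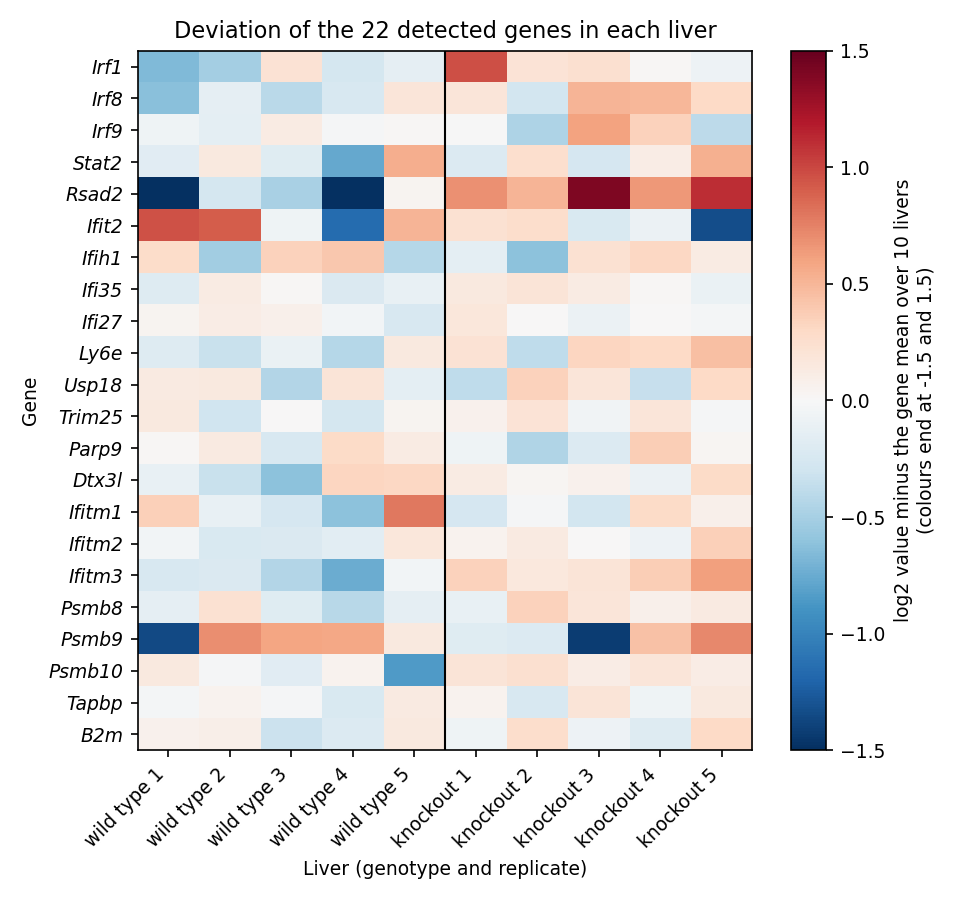
Deviation of each detected gene (rows, by role) from its mean log2 value over 10 livers, in each liver (columns; red above, blue below, colours ending at -1.5 and 1.5). Rsad2 and Ifitm3 are below or near their means in all wild type livers and above them in all knockout livers; Ifit2 and Psmb9 vary widely within both genotypes.

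Interferons themselves were at the background. All 10 interferon genes measured averaged 16 or less, with Ifna1 the highest at 10.3, and none was detected. Interferon receptors and their kinases were present, with 8 of 9 detected. None of 8 passed in limma. Among them 1 was higher and 1 lower at an unadjusted p under 0.05, against 5.94% and 5.44% of all genes. Jak1, the brightest, averaged 583 ± 35.9 and 589 ± 32.9, and the receptor chains Ifnar1 and Ifnar2 differed by -0.02 ± 0.12 and -0.03 ± 0.09. Jak2, named like these receptor chains after its values were seen, was lower in every knockout liver, at 333 to 376 against 395 to 504, and missed the threshold (-0.37 ± 0.08, adjusted p = 0.0715).

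Sensors and adaptors that induce interferon had 0 of 15 tested genes passing in limma. Among them 1 was higher and 3 lower at an unadjusted p under 0.05, against 5.94% and 5.44% of all genes. Their brightest gene, Tbk1, differed by 0.08 ± 0.10. Of 13 tested negative regulators none passed. Among these regulators 3 were higher and 3 lower at an unadjusted p under 0.05, against 5.94% and 5.44% of all genes. Ptpn11, a phosphatase of cytokine signalling and the brightest of them, was lower in every knockout liver (712 to 783 against 847 to 1116; -0.35 ± 0.07, adjusted p = 0.0584). Socs3, a feedback inhibitor named after its values were seen, averaged 121 ± 37.0 and 202 ± 49.9 (0.76 ± 0.20, adjusted p = 0.163).

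Of the other interferon-induced genes 62 had a probe set and 49 were tested. None passed in limma, and 8 were higher and 2 lower at an unadjusted p under 0.05, against 5.94% and 5.44% of all genes. Differences were positive for 30, against 50.1% of all genes, with a median of 0.08. The 2 lower genes were Ifi47 (-0.64 ± 0.22, limma adjusted p = 0.314) and Pml (-0.38 ± 0.12, 0.263). They were named after their values were seen. Lgals9, the brightest of the list, differed by 0.20 ± 0.13. The immunity-related GTPases Igtp and Irgm2, which act on vacuoles of intracellular parasites, had the widest split and were named after their values were seen. Irgm1, of the same family and likewise named, differed by 0.15 ± 0.13. Igtp read 101, 111, 76.3, 99.2 and 1064 in wild type and 591, 623, 547, 934 and 847 in knockout livers (adjusted p = 0.103). Irgm2 read 58.4, 37.3, 61.5, 30.3 and 723 against 304, 356, 344, 741 and 628 (adjusted p = 0.116). Wild type replicate 5 was above every knockout liver for Igtp and within their range for Irgm2, and the other wild type livers lay far below. Both genes lie on chromosome 11. Ifitm6 read 46.4, 45.5, 38.2, 40.4 and 195 against 172, 119, 198, 138 and 239 (1.54 ± 0.37, adjusted p = 0.103), with the same wild type liver apart, and was likewise named after its values were seen.

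The MHC class I heavy chains had 3 of 8 tested genes higher at an unadjusted p under 0.05, against 5.94% of all genes. None of the 8 passed in limma or was lower at that p. H2-Q10, a secreted class I molecule of liver, averaged 866 ± 53.4 and 1067 ± 139 (0.29 ± 0.08, adjusted p = 0.190). H2-D1 and H2-K1, the classical heavy chains, named after their values were seen, differed by 0.19 ± 0.07 and 0.18 ± 0.08 (adjusted p = 0.371 and 0.491). These genes share much sequence, and how far their probe sets read each other was not tested. In peptide loading, Calr averaged 3118 ± 201 and 3607 ± 268 (0.21 ± 0.06, adjusted p = 0.210) and none of 5 tested genes passed. The constitutive proteasome had 18 of 18 genes detected and none at an unadjusted p under 0.05, with Psma1 at -0.02 ± 0.05. MHC class II had 2 of 10 genes detected, and Cd74, the invariant chain, read 31.4, 84.4, 53.7, 79.6 and 86.5 in wild type against 122, 49.6, 209, 204 and 138 (1.04 ± 0.36, adjusted p = 0.319). Of 6 tested class II genes none passed, and 2 were higher at an unadjusted p under 0.05, against 5.94% of all genes.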

How the data were processed

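RNA of 10 fetal livers was labelled from 1 µg by the Affymetrix one-cycle method, per the labels' protocols. The deposited values are linear intensities, 1 for each of 45037 probe sets on every array, and run below 0. How the authors summarised and scaled them is not given in the sources used here. Array medians ran from 19.47 to 25.01, and 20.7% to 22.6% of values per array were at or below 0.

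Here the intensities were quantile normalized, values under 16 were set to 16 and log2 was taken, so differences of genes near 16 are understated. A floor at the lowest positive value, as in an earlier analysis, was not used as the main setting because it inflates differences of dim genes. The dimmest 40% of probe sets by mean log2 value were dropped, and 27022 stayed. Knockout was compared with wild type in limma 3.58.1 (R 4.3.3) by a two-sided test with genotype as sole term and a mean-variance trend in eBayes. P-values were adjusted by Benjamini-Hochberg over those 27022, and 0.05 was the threshold. A gene was called where its representative probe set passed. SDs are on the normalized linear scale, and SEs and intervals are those of limma.

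Probe sets were named from the platform's annotation: 34945 carried 1 symbol, 932 several and 9160 none. Named genes were all members, Zfp36l2, and of each other list the called genes or else the one with the highest mean. Others are marked in the text. The members and gene lists were chosen with earlier results of these data known. The fit was tested on simulated data. Plots were made in Python 3.11.15 (matplotlib 3.10.9). Promoter motifs were searched in RefSeq sequences on both strands.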

Additional observations from a re-analysis of the deposited data

Results flagged for a closer look

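Dixon's ratio was applied to the log2 values of the 22 detected members and Zfp36l2 within each genotype. It set 4 values apart among 46 groups, where chance gives about 1 in 20 groups, or 2.3. Ly6e was low in knockout replicate 2, at a log2 value of 8.55 with the nearest liver at 9.14. Psmb9 was low in wild type replicate 1, at 4.26 with the nearest at 5.77. Zfp36l2 was high in wild type replicate 3, at 9.22 with the nearest at 8.63, and low in knockout replicate 2, at 6.36 with the nearest at 6.68.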

How the results depend on the processing

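Over 22 alternative settings, 706 of 732 values of members kept their side of the threshold, 26 lost the call and 0 gained one or reversed as a called value. The lost calls are all of Rsad2 and Ifitm3, and 20 of 34 members kept their sign throughout. The number of members called was 2, and 0 with values at or under 0 set to the lowest positive value, a floor of 32, no filter on dim probe sets, the detection level as filter, or eBayes without trend. Called probe sets over the array numbered 57, and 11, 12, 4 and 9 with the lowest positive floor, a floor of 32, no filter and no trend. They numbered 94 with arrays scaled to their medians and 103 with array weights. Leaving out 1 liver gave 13 to 168 called probe sets, 0 to 2 called members, 2 to 4 members without overlap, a median difference of 0.12 to 0.18 and a Zfp36l2 difference of -2.11 to -1.96; the highest count came without wild type replicate 5 and the lowest without wild type replicate 4. With the replicate number as a block 179 probe sets and the same number of members, 2, were called. Same-numbered livers correlated at 0.0695 to 0.235 in their deviations, 1 of the 5 pairs under 0.1, and 8 of 10 livers correlated best with their own number, a hint from the data and not from the design. The log2 differences of Irf7, Bst2, Xaf1 and Oas1a, which have livers under the floor, kept their sign but changed in size with the floor, from 0.35 to 4.25 over these genes. The cause of the other shifts was not tested. For arrays the dimness of 15 members limits what can be seen.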
